A study of Mus musculus with 12 samples.

Results

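The cadherin and protocadherin superfamily was taken as every gene of the expression table whose symbol starts with Pcdh, or with Cdh followed by a digit, which gave 88 of 18879 genes. They comprised 20 cadherins, 12 non-clustered protocadherins and 56 clustered protocadherins, of which 14 belong to the alpha, 21 to the beta and 21 to the gamma cluster. Single-cell RNA sequencing was performed on prefrontal cortex of mice at birth (postnatal day 0) from a line with a 7 bp frameshift deletion in exon 6 of Myt1l, which encodes a neuronal transcription factor. The deletion was made in zygotes with Cas9, is carried in the germline and so is present in every cell of the mutants. The labels give the strain as C57BL/6J, whereas the methods describe C57BL/6N. Heterozygous Myt1l (+/-) animals are called HET, homozygous Myt1l (-/-) animals HOM and Myt1l (+/+) animals WT. Cells of 2 animals per genotype were pooled into 1 library each and read from the 5′ end, and the 12 deposited samples are 4 sequencing runs of each of the 3 libraries. Which animal a cell came from was not known here, so every comparison is between libraries and no difference could be tested against the spread between animals.

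Cadherins are calcium-dependent adhesion proteins whose extracellular repeats bind the same or a related cadherin on a neighbouring cell. Classical cadherins are linked to the actin cytoskeleton through catenins, whereas several non-clustered protocadherins of the delta group recruit the WAVE complex, a regulator of actin branching. Clustered protocadherins are encoded in tandem arrays in which each neuron uses a small random set of promoters, and the resulting combination of isoforms gives the cell a surface identity used in self-avoidance and synapse choice.

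Expression values were whole numbers that the authors had already corrected for depth, and a level here is the sum of a gene over the cells of 1 type in 1 library, divided by the sum of all genes and multiplied by 1000000 (depth-corrected CPM). CPM counts 5′ tags and was not divided by transcript length, so an order between genes is an order of tag numbers. The table held 36263 cells of 21 deposited cell types, with 12072 HET, 13688 HOM and 10503 WT cells and a median of 1045 to 1330 molecules per cell in each library, and 18 types had at least 100 cells in every library. A legend of the study attaches these same totals to other genotypes than the deposited cell names do. The study's text reports more layer I neurons in (-/-) mice. Under the deposited names LayerI [19-P] held 114 HET, 237 HOM and 71 WT cells. The deposited names were used here, and every direction below rests on them. Myt1l itself was above WT in 17 of 18 types in HET and 18 of 18 in HOM, with a mean log2 ratio in layer II to VI neurons of 0.42 and 1.14. The deletion lies within the message, so this level does not check the genotype. Xist was seen in 2 HET, 1 HOM and 2121 WT cells, and a Y-linked transcript in 1865 HET, 2086 HOM and 603 WT cells, so WT, with cells of either sex, differed in sex from both mutant libraries. Libraries shared 240 (HET and HOM), 199 (HET and WT) and 215 (HOM and WT) cell barcodes. Most marker lists were highest in the type of that name in all 3 libraries, but the layer V-VI list was highest in Striatal inh2 [7-P]. Lists without a type of their own among the 18 were highest elsewhere. These were layer I in Int2 [14-P], choroid plexus in Astrocytes (immature) 1 [10-P], blood in Endothelial1 [17-P] and meningeal fibroblasts in Endothelial2 [21-P]. The 6 meningeal fibroblast markers were highest in HOM in all 18 types, and outside Endothelial2 [21-P] they summed to 0 to 28.5 CPM in HET, 80.5 to 3079 CPM in HOM and 0 to 44.6 CPM in WT. A value above 0 of any of them was found in 1.31% of HET, 10.3% of HOM and 1.35% of WT cells.

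Of the 88 genes, 46 reached a sum of 200 depth-corrected counts over all cells, namely 12 cadherins, 10 non-clustered protocadherins, 5 alpha, 6 beta and 13 gamma isoforms. Sums lay between 5 for Cdh17 and 12344 for Cdh2, with a median of 242.5. The cell type with the highest CPM was the same in all 3 libraries for 14 of these 46 genes, while 35.7% of all 11242 genes with that sum had a constant highest type. A constant type was found for 7 of 12 cadherins and 5 of 10 non-clustered protocadherins, and for 1 of 5 alpha, 0 of 6 beta and 1 of 13 gamma isoforms. Cadherins and non-clustered protocadherins were therefore described gene by gene, and clustered isoforms mainly as sums.

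**Figure D1:**
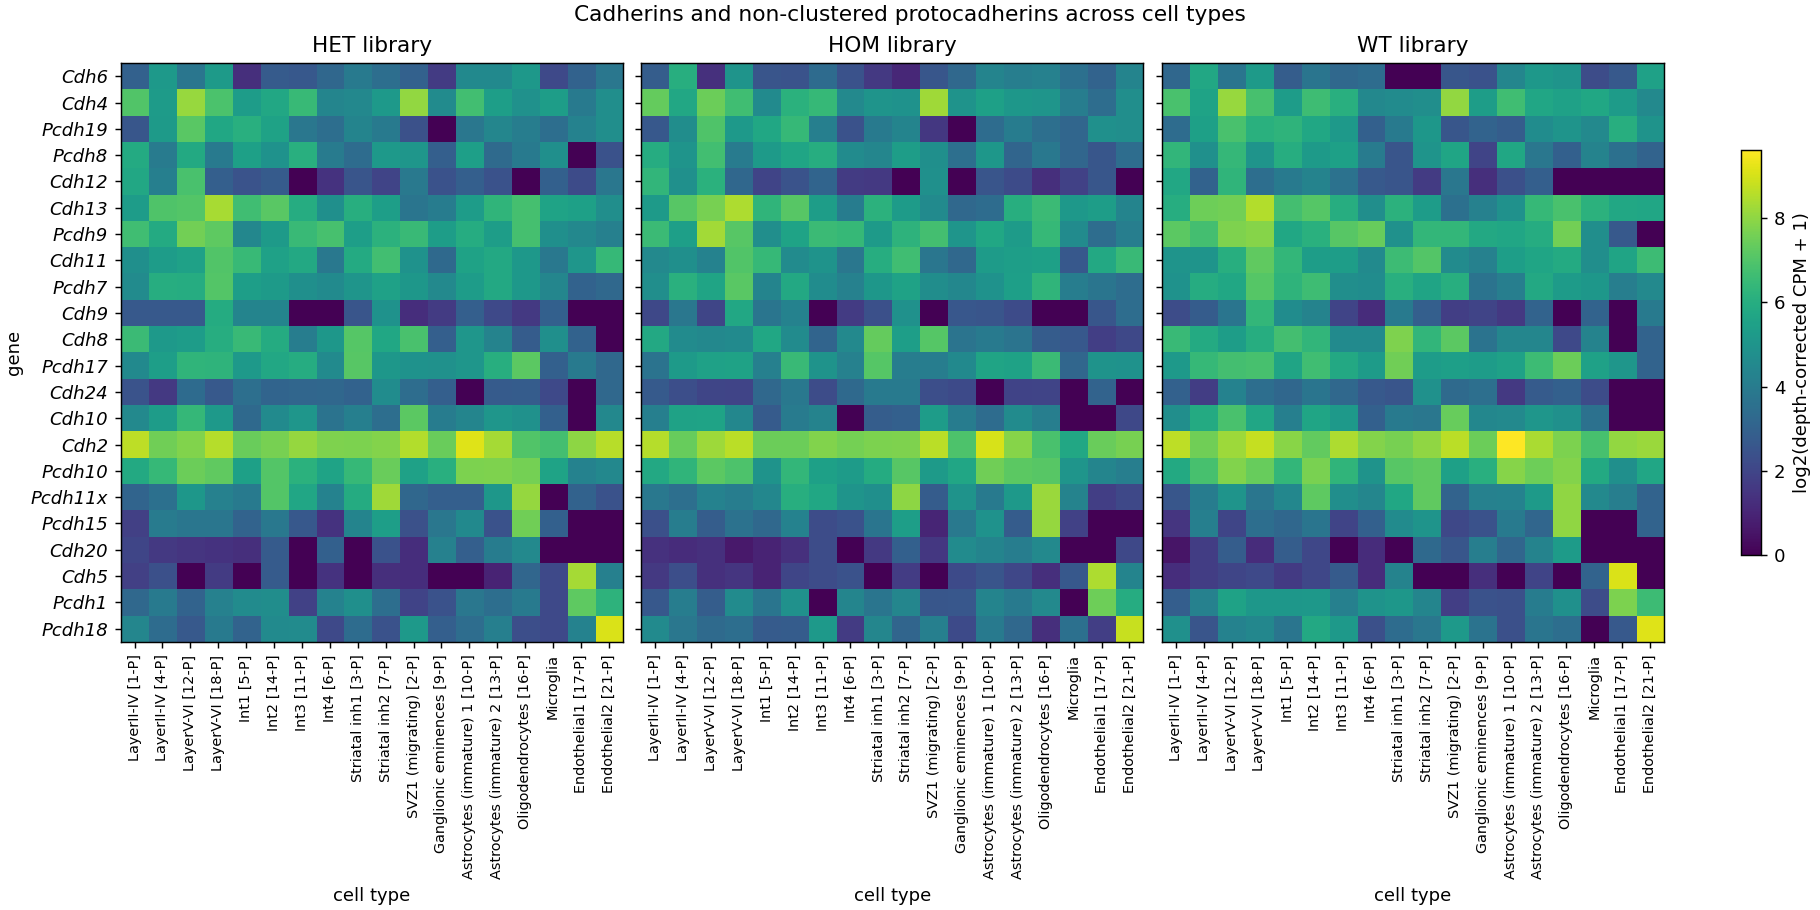
Levels of the 22 cadherins and non-clustered protocadherins with a sum of at least 200 (vertical) in 18 cell types (horizontal) of the HET, HOM and WT libraries, as log2(CPM + 1). Cdh5 and Pcdh18 stand out in 1 type each in every library, whereas Cdh2 is high across nearly all types.

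Some members had their highest level in vascular cells. Cdh5, which encodes VE-cadherin of endothelial junctions, reached 321 CPM in HET, 347 CPM in HOM and 538 CPM in WT cells of Endothelial1 [17-P]. It was found in 31.9% of HET, 34.8% of HOM and 45.6% of WT cells of that type, against 0.36% of HET, 0.58% of HOM and 0.81% of WT microglia, which should lack it (median depth 1226.5 to 1722 and 741 to 818.5 molecules per cell). Its highest type was thus the endothelial one in each library, and both mutant libraries lay below WT there. Pcdh1, another protocadherin of the delta group, was also highest in Endothelial1 [17-P], at 148 CPM in HET, 181 CPM in HOM and 210.0 CPM in WT. Pcdh18 was highest in Endothelial2 [21-P], at 535 CPM in HET, 446 CPM in HOM and 572 CPM in WT. Cdh2 came second there, at 380 CPM in HET, 202 CPM in HOM and 286 CPM in WT. Cdh11, highest in LayerV-VI [18-P] in every library, had 86.3 CPM in HET, 91.1 CPM in HOM and 95.4 CPM in WT in Endothelial2 [21-P], the last equal to Pcdh1 in WT. Pericyte and mural cell markers in this type summed to 16315 CPM in HET, 12351 CPM in HOM and 15198 CPM in WT. Meningeal fibroblast markers in Endothelial2 [21-P] summed to 466 CPM in HET, 19420 CPM in HOM and 382 CPM in WT, and their part in the HOM values of this type was not tested.

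Cdh2, or N-cadherin, which holds neural progenitors together at the ventricular surface, was highest in Astrocytes (immature) 1 [10-P] in every library. Its level there was 574 CPM in HET, 528 CPM in HOM and 787 CPM in WT, and it was seen in 43.4% of HET, 42.0% of HOM and 54.0% of WT cells, compared with 7.91% of HET, 4.34% of HOM and 8.91% of WT microglia. It gave the largest tag number of all members in 13 of 18 types of each library, and had 360 CPM in HET, 395 CPM in HOM and 394 CPM in WT cells of SVZ1 (migrating) [2-P]. In this migrating population Cdh4 (R-cadherin) came next, at 269 CPM in HET, 302 CPM in HOM and 265 CPM in WT. Cdh4 was equally high in LayerV-VI [12-P] of HET (284 CPM) and WT (283 CPM), whereas HOM had 173 CPM there. Pcdh10, which binds the WAVE complex, was the second member in both astrocyte types, with 212 CPM in HET, 182 CPM in HOM and 233 CPM in WT in Astrocytes (immature) 1 [10-P].

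In deep-layer neurons, 6 of the 14 genes with a constant highest type had their maximum in LayerV-VI [18-P], as did 4.73% of the 4017 genes of the whole table with a constant type. Cdh13 (T-cadherin, attached to the membrane by a lipid anchor) led them with 325 CPM in HET, 344 CPM in HOM and 363 CPM in WT, and it was found in 23.5% of HET, 25.3% of HOM and 23.5% of WT cells against 3.60%, 2.89% and 6.07% of HET, HOM and WT microglia. Pcdh7 (131 CPM in HET, 141 CPM in HOM, 135 CPM in WT) and the type II cadherins Cdh11 (129 CPM in HET, 126 CPM in HOM, 154 CPM in WT) and Cdh9 (59.7 CPM in HET, 53.6 CPM in HOM, 81.0 CPM in WT) shared that maximum. Pcdha12 (14.8 CPM in HET, 11.9 CPM in HOM, 18.7 CPM in WT) and Pcdhga11 (27.9 CPM in HET, 35.1 CPM in HOM, 43.5 CPM in WT) were the isoforms among the 6. Pcdh19, the X-linked epilepsy gene, was highest in the other deep-layer type, LayerV-VI [12-P], with 141 CPM in HET, 125 CPM in HOM and 114 CPM in WT. Pcdh9 was highest in one or the other of these types, at 189 CPM in HET and 309.8 CPM in HOM for LayerV-VI [12-P] and 234 CPM in WT for LayerV-VI [18-P]. Cdh12 had its 2 highest levels in LayerV-VI [12-P] (114 CPM in HET, 69.9 CPM in HOM, 76.9 CPM in WT) and LayerII-IV [1-P] (53.7 CPM in HET, 79.6 CPM in HOM, 53.9 CPM in WT). Cdh6 and Pcdh8 had different highest types between libraries, and Cdh6 reached 37.2 CPM in HET for LayerV-VI [18-P] but 64.8 CPM in HOM and 53.5 CPM in WT for LayerII-IV [4-P]. Pcdh8, known for its role in the turnover of synaptic cadherins, reached 66.3 CPM in HET for Int3 [11-P] and 105 CPM in HOM and 83.0 CPM in WT for LayerV-VI [12-P].

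Other members had their highest level in striatal neurons or the oligodendrocyte lineage. Cdh8, a type II cadherin of corticostriatal circuits, was highest in Striatal inh1 [3-P] with 134 CPM in HET, 160 CPM in HOM and 218 CPM in WT. SVZ1 (migrating) [2-P] came second, with 115 CPM in HET, 134 CPM in HOM and 147 CPM in WT. Cdh24 had its maximum in Striatal inh2 [7-P], at only 24.6 CPM in HET, 14.6 CPM in HOM and 28.3 CPM in WT. In HOM, Striatal inh1 [3-P] was close, at 14.3 CPM. Pcdh15, best known as a component of the tip link of inner ear hair cells, was highest in Oligodendrocytes [16-P], with 185 CPM in HET, 269.8 CPM in HOM and 262 CPM in WT. There it was found in 18.4% of HET, 27.7% of HOM and 23.2% of WT cells, while at most 0.72% of microglia of a library had a value above 0. Pcdh11x was shared by Oligodendrocytes [16-P] (271 CPM in HET, 285 CPM in HOM, 262 CPM in WT) and Striatal inh2 [7-P] (306 CPM in HET, 254 CPM in HOM, 155 CPM in WT). Cdh20 reached no more than 22.1 CPM in HET, 24.2 CPM in HOM and 37.5 CPM in WT, in the oligodendrocyte type of HET and WT and in Ganglionic eminences [9-P] of HOM. No member had its constant highest type among the interneuron types, where Cdh2 was the highest member of Int1 [5-P], Int3 [11-P] and Int4 [6-P] in all libraries and Pcdh9 the second in Int3 and Int4.

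The 4 layer II to VI types were compared first between genotypes. A gene was called lower or higher where its mean log2 ratio over the 4 types passed 1.5-fold with the same sign in each, given a sum of at least 50 over both libraries in each type. In HET against WT, 8 members could be measured, of which 0 were called higher and 1 lower (Pcdh17), while 0.277% of all 3248 measured genes were called higher and 1.94% lower. In HOM against WT, 0 of 8 were called higher and 2 lower (Pcdh17 and Cdh10), against 2.72% and 5.87% of 3388 genes. The HET call of Pcdh17 was lost once a trend with transcript length was removed (-0.44), and with a minimum sum of 200 only Cdh2 could be measured. The median log2 ratio of the 8 members was -0.33 in HET and -0.35 in HOM, beside -0.02 and -0.03 over all measured genes, and without the length trend it was -0.17 in HET and -0.13 in HOM. Both comparisons use the same WT library. In HOM against HET, 1 of 9 members was called higher (Pcdhgc3, 0.62) and 1 lower (Pcdh17, -0.66), against 0.708% and 0.806% of 4094 genes.

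Markers of other cell types differed between the libraries in these neurons. The 10 interneuron markers summed to 848 CPM in HET, 1976 CPM in HOM and 842 CPM in WT for LayerII-IV [4-P] and to 720 CPM in HET, 1276 CPM in HOM and 600.5 CPM in WT for LayerV-VI [18-P], and at least 1 of them was above 0 in 25.7% of HET, 29.4% of HOM and 22.4% of WT layer neurons. A meningeal fibroblast marker was above 0 in 0.371% of HET, 8.33% of HOM and 0.279% of WT layer neurons. The 8 astrocyte and radial glia markers summed to 1816 CPM in HET, 1879 CPM in HOM and 1259 CPM in WT for LayerII-IV [4-P], and their part in the differences was not tested. Without the layer neurons that had an interneuron marker, Pcdh17 was at -0.72 in HET and -1.23 in HOM and Cdh10 at -1.10 in HOM, all called, and Pcdh9 was called lower as well in HET (-0.60). Without the cells that had a meningeal fibroblast marker, Pcdh17 was at -0.70 in HET and -1.33 in HOM and Cdh10 at -0.96 in HOM, and no call differed. The 2 subsets were chosen after seeing the data.

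**Figure D2:**
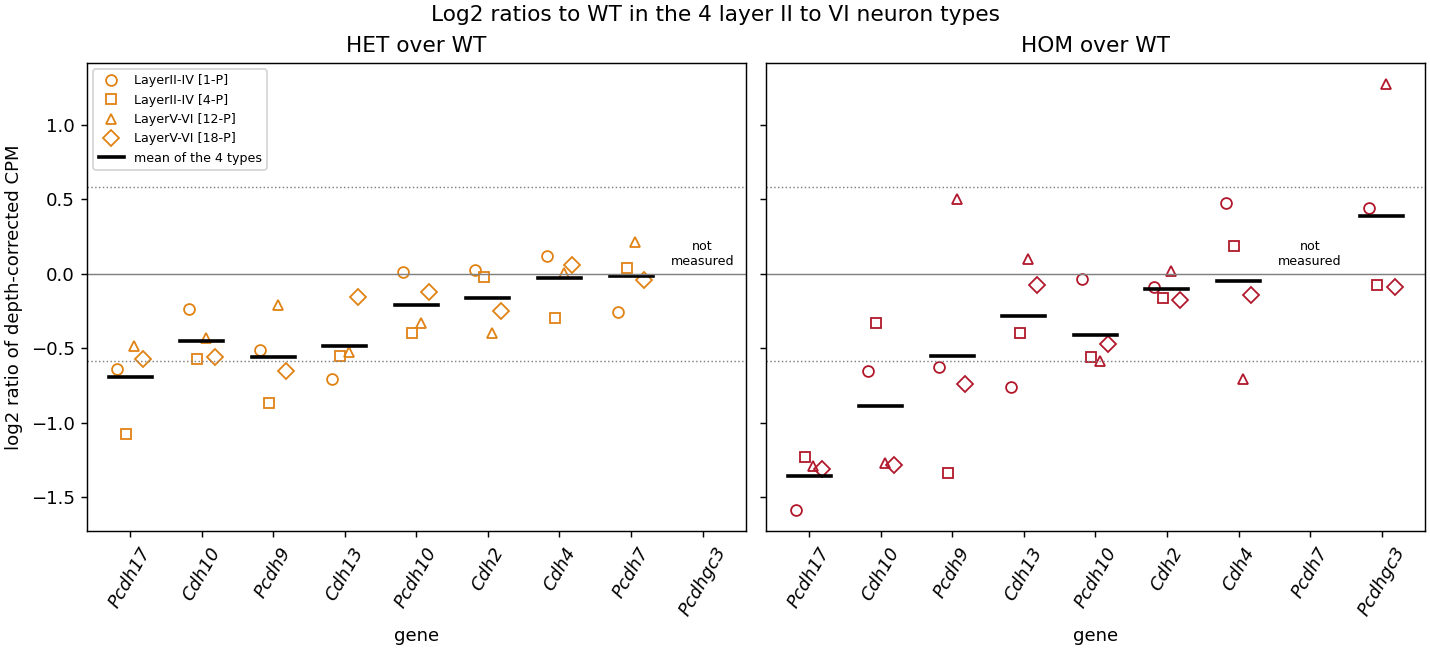
Log2 ratio to WT (vertical) of the 9 members measured in all 4 layer types, left for HET and right for HOM. Open symbols are the 4 cell types, black lines their mean and dotted lines a 1.5-fold change. Pcdh17 lies below 0 in all 4 types of both panels, with means of -0.69 and -1.35.

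Pcdh17 encodes a protocadherin of the delta group that gathers the WAVE complex at axon contacts and acts in presynaptic assembly of corticobasal circuits. It lies on chromosome 14 (mm10 chr14:84443563-84539002, plus strand). In LayerII-IV [1-P] it had 22.6 CPM in HET, 11.7 CPM in HOM and 35.2 CPM in WT, and in LayerII-IV [4-P] 41.2 CPM in HET, 37.0 CPM in HOM and 86.8 CPM in WT. LayerV-VI [12-P] had 77.0 CPM in HET, 44.0 CPM in HOM and 108 CPM in WT, and LayerV-VI [18-P] 75.6 CPM in HET, 45.3 CPM in HOM and 112 CPM in WT. The order was the same in all 4 types, with HOM lowest, HET between and WT highest. The mean log2 ratio was -0.69 in HET (SD 0.26 over the 4 types) and -1.35 in HOM (SD 0.16), which correspond to 0.618 and 0.391 of the WT level. The share of cells with a value above 0 was 6.80% (exact Clopper-Pearson 95% interval 5.62% to 8.14%) in HET, 4.46% (3.45% to 5.64%) in HOM and 9.26% (7.77% to 10.9%) in WT for LayerV-VI [18-P], at median depths of 888, 975 and 803.5 molecules per cell in HET, HOM and WT. These intervals cover counting error only. Microglia had a value above 0 in 0.72% of HET, 0.87% of HOM and 4.05% of WT cells, so the WT library was also highest in a type that should have little of this gene, and the part of free RNA in the difference was not tested.

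Over all types, Pcdh17 was below WT in all 9 types with a sum of at least 50, layer types included, in each mutant library, and types under that sum were not counted. The median over these types was -0.57 in HET and -1.23 in HOM. Values in Striatal inh1 [3-P], where it was among the leading members, were 137 CPM in HET, 133 CPM in HOM and 185 CPM in WT. In Int2 [14-P] HOM was close to WT (53.8 CPM in HET, 91.7 CPM in HOM, 102 CPM in WT), so the difference varied in size between types. In layer neurons with a Y-linked transcript, Pcdh17 was at 59.8 CPM in 637 HET cells, 12.6 CPM in 665 HOM cells and 83.4 CPM in 137 WT cells, from 49, 11 and 15 counts in HET, HOM and WT, and WT layer neurons with Xist had 65.3 CPM in 878 cells. Over all Y-positive cells it was at 64.4 CPM in HET, 33.9 CPM in HOM and 54.5 CPM in WT, so HET was above WT there, and WT cells with Xist had 65.8 CPM.

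Cdh10, a type II classical cadherin of chromosome 15 (mm10 chr15:18818947-19014236, plus strand), had the lowest ratio to WT of all pairs of a member and a type with a sum of at least 100. In SVZ1 (migrating) [2-P] its level was 146 CPM in HET, 39.3 CPM in HOM and 165 CPM in WT, from sums of 105, 40 and 201 depth-corrected counts in HET, HOM and WT. The log2 ratio to WT was -0.18 in HET and -2.07 in HOM. It was found in 101 of 561 HET cells (interval 14.9% to 21.4%), 40 of 792 HOM cells (3.63% to 6.81%) and 169 of 979 WT cells (14.9% to 19.8%) of this type, whose median depth was 3889 to 4077.5 molecules per cell, and in at most 0.81% of microglia of a library. SVZ1 was its highest type in HET and WT, but in HOM LayerV-VI [12-P] was higher (47.1 CPM). The intermediate progenitor markers of this type summed to 1468 CPM in HET, 1655 CPM in HOM and 1485 CPM in WT. Among SVZ1 cells with a Y-linked transcript the log2 ratio was 0.63 in HET and -2.30 in HOM, from sums of 41, 8 and 23 counts in HET, HOM and WT.

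In layer neurons Cdh10 had 84.3 CPM in HET, 47.1 CPM in HOM and 114 CPM in WT for LayerV-VI [12-P] and 34.5 CPM in HET, 20.8 CPM in HOM and 50.9 CPM in WT for LayerV-VI [18-P]. The upper layers were closer together, with 22.1 CPM in HET, 16.6 CPM in HOM and 26.1 CPM in WT for LayerII-IV [1-P] and 39.1, 46.3 and 58.2 CPM in HET, HOM and WT for LayerII-IV [4-P]. The mean log2 ratio was -0.45 in HET (SD 0.16) and -0.89 in HOM (SD 0.47), so HET did not pass 1.5-fold. The HOM ratios were -1.27 and -1.29 in the deep layers and -0.65 and -0.33 in the upper layers. When layer neurons were limited to cells with a Y-linked transcript, levels were 42.7 CPM in HET, 37.9 CPM in HOM and 44.5 CPM in WT (35, 33 and 8 counts), whereas WT cells with Xist had 87.1 CPM. The difference in layer neurons therefore depended on which WT cells were used, and for Cdh10 genotype and sex cannot be told apart there.

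**Figure D3:**
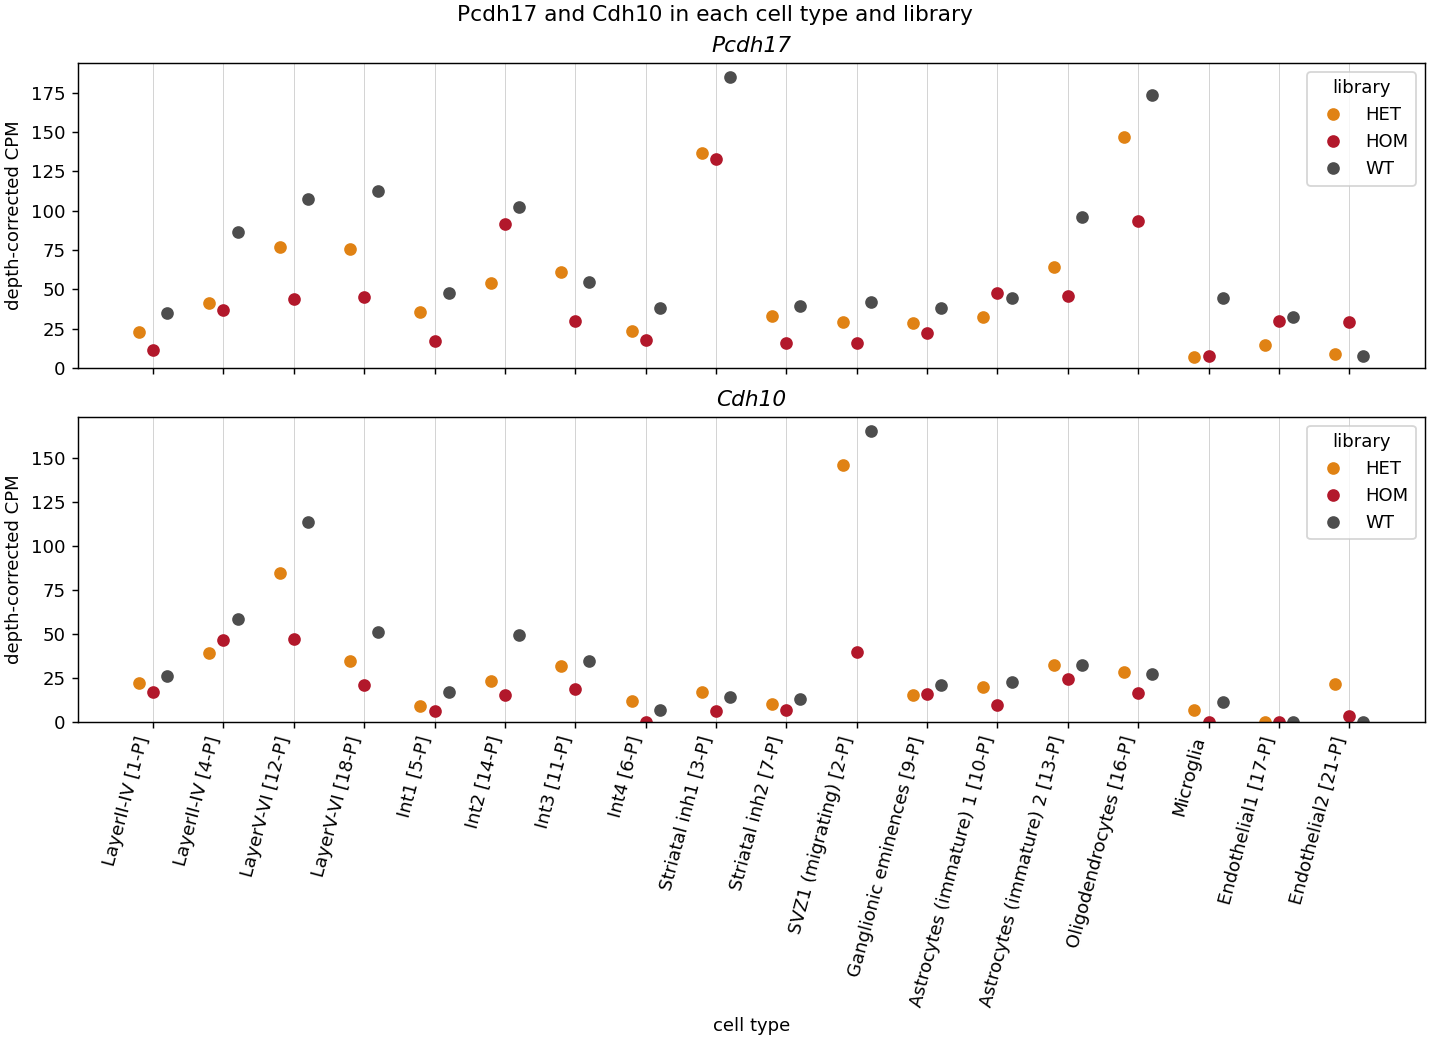
Levels of Pcdh17 (top) and Cdh10 (bottom) in depth-corrected CPM (vertical) in 18 cell types, with 1 point for each library in the order HET, HOM, WT. Pcdh17 is lowest in HOM in the 4 layer types, and Cdh10 in SVZ1 (migrating) [2-P] is at 39.3 CPM in HOM but 146 CPM in HET and 165 CPM in WT.

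The start regions of both genes are printed because they were the members called in layer neurons of HOM, and those of Pcdh10 and Cdh8 because these were below WT in all 14 and all 8 types measured in HOM. Each window runs from 250 bases before to 50 bases after a gene start in RefSeq (GRCm38.p6). For Cdh10 the only window held here starts from a shorter transcript, 1382 bases into the gene as given above, so it is not the region before the outermost start. Capitals mark CCAAT (a box bound by NF-Y) and the Myt1l core motif AAAGTT on either strand, so ATTGG and AACTTT are their reverse complements. CCAAT was chosen after the sequences had been seen, and no matches of the 2 motifs overlapped in these windows.
Pcdh17 (chr14:84443313-84443612, plus strand): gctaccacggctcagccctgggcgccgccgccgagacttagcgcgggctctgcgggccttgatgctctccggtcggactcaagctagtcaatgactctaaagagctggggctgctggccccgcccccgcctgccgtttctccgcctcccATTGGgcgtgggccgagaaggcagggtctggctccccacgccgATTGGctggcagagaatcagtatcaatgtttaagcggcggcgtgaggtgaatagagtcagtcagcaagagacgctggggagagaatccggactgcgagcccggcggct
Pcdh10 (chr3:45378148-45378447, plus strand): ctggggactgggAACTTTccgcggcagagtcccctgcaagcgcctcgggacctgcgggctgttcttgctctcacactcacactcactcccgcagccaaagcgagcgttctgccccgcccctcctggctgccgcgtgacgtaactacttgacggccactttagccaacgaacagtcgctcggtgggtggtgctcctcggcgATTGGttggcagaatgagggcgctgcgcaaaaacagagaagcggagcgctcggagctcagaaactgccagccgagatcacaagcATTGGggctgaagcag
Cdh10 (chr15:18820079-18820378, plus strand): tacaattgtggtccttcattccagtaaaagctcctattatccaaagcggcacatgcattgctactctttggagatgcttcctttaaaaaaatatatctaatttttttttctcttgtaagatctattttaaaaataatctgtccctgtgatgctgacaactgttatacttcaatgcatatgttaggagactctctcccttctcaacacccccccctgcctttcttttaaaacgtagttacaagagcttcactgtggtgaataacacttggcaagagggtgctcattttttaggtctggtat
Cdh8 (chr8:99416422-99416721, minus strand): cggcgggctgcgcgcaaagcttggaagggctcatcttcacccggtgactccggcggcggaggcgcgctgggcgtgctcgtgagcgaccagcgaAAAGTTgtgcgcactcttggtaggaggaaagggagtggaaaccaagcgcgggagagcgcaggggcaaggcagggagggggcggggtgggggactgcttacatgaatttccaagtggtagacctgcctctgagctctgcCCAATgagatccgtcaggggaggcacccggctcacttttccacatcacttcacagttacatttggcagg
The Pcdh17, Pcdh10 and Cdh8 windows were GC-rich, with 65%, 62.3% and 62.3% G and C and 26, 24 and 21 CpG dinucleotides, whereas the internal Cdh10 window had 37.7% and 2. Pcdh17 held 2 CCAAT matches, both read as the reverse complement, and no AAAGTT, Pcdh10 had 2 CCAAT matches and 1 AAAGTT match, all read as the reverse complement, Cdh8 had 1 match of each as spelled, and Cdh10 had none. Windows were found for 9 of 12 non-clustered protocadherins and 12 of 20 cadherins. As for Cdh10, those of Pcdh15, Cdh12 and Cdh18 lie well inside the gene rather than at its outermost start. All Cdh7 windows and the Cdh15 window also begin inside the gene, though less far in than for Cdh10. CCAAT was present for 8 of those 9 protocadherins (9 of 10 windows) and 6 of those 12 cadherins (7 of 14 windows), compared with 37.4% of all 32851 windows. AAAGTT was present in 2 of 10 protocadherin and 1 of 14 cadherin windows, compared with 14.1% of all windows. The internal Pcdh15 window held both motifs. The median number of CpG dinucleotides was 18 in protocadherin, 10.5 in cadherin and 7 in all windows, so the sets differ in base content. A match is a description of the letters in this window only.

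None of the other members measured in layer neurons was called in either comparison with WT. Pcdh9 had a mean log2 ratio of -0.56 in HET (SD 0.28), below WT in all 4 types, and -0.55 in HOM (SD 0.77), where LayerV-VI [12-P] was above WT (189 CPM in HET, 309.8 CPM in HOM, 218 CPM in WT) and the other 3 types below. In LayerII-IV [4-P] Pcdh9 had 58.7 CPM in HET, 42.3 CPM in HOM and 107 CPM in WT. Cdh13 was below WT in all 4 types in HET (mean -0.49, SD 0.23) and in 3 of 4 in HOM (mean -0.28, SD 0.38), with the largest gap in LayerII-IV [1-P] (38.6 CPM in HET, 37.2 CPM in HOM, 63.1 CPM in WT). In Y-positive layer neurons the Cdh13 means were 0.29 in HET and 0.08 in HOM, above WT in both. That filter also leaves fewer cells, and the part of sex was not tested. Pcdh10 had a mean of -0.21 in HET (SD 0.19) and -0.41 in HOM (SD 0.26), below WT in 3 of 4 types in HET and 4 of 4 in HOM. Without the length trend these were 0.04 in HET and -0.12 in HOM. Its values in LayerV-VI [12-P] were 176 CPM in HET, 147 CPM in HOM and 221 CPM in WT.

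Cdh2 was not called in layer neurons, with means of -0.16 in HET (SD 0.20) and -0.10 in HOM (SD 0.09), and 408 CPM in HET, 375 CPM in HOM and 400.0 CPM in WT for LayerII-IV [1-P]. Its HOM mean ran from -0.55 (Y-positive cells) to 0.04 (length trend removed) over 12 alternatives and was below 0 in 10. Cdh4 was at -0.03 in HET (SD 0.18) and -0.05 in HOM (SD 0.51), and its HET mean reached 0.37 in cells of at least 2000 molecules. Its HOM levels lay on both sides of WT, with 162 CPM against 117 CPM in WT for LayerII-IV [1-P] and 173 CPM against 283 CPM in WT for LayerV-VI [12-P]. Pcdh7 was at -0.01 in HET (SD 0.19), from -0.32 to 0.24 over its alternatives, and was not measured in all 4 types for HOM. Pcdhgc3, a gamma C-type isoform, was measured for HOM only, with a mean of 0.39 (SD 0.64), and 44 counts in HOM against 9 in WT gave the log2 ratio of 1.27 in LayerV-VI [12-P]. The other 3 types lay between -0.09 and 0.44.

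Single cell types were then read with a 2-fold threshold for members with a sum of at least 100 over both libraries. In HET 0 of 89 pairs of a member and a cell type were called higher and 1 lower, while 0.158% and 0.53% of 43024 gene and type pairs were called. In HOM 0 of 89 pairs were higher and 12 lower, against 0.85% and 1.44% of 45389 pairs. Pairs of 1 gene or 1 cell type share cells and are not independent. A value below WT was found in 66 pairs in HET (74.2%) and 69 in HOM (77.5%), compared with 48.9% and 50.7% of all pairs. The pair called in HET was Pcdh17 in LayerII-IV [4-P]. It was not called with TMM scaling or without the length trend. The 12 pairs in HOM fell on 6 members. Among Y-positive cells, where counts were far fewer, 11 pairs were higher and 9 lower in HET and 7 were higher in HOM. The count lower in HOM among these cells is not given here. Pairs were still selected by their sum over all cells. The share over all genes was not computed for this subset, so these counts cannot be set against it.

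Of these 6, Pcdh17 had 4 pairs, in LayerII-IV [1-P], LayerII-IV [4-P], LayerV-VI [18-P] and Astrocytes (immature) 2 [13-P], the last with 64.0 CPM in HET, 46.1 CPM in HOM and 95.8 CPM in WT. Cdh10 was called in SVZ1 and LayerV-VI [18-P]. Cdh8 was called in LayerV-VI [18-P], with 62.4 CPM in HET, 23.2 CPM in HOM and 62.3 CPM in WT, and in Int1 [5-P], with 91.8 CPM in HET, 52.7 CPM in HOM and 106 CPM in WT. It was below WT in all 8 types measured in HOM (median -0.86), and in SVZ1 the libraries were close, at 115 CPM in HET, 134 CPM in HOM and 147 CPM in WT. In LayerV-VI [18-P] the HET value of Cdh8 equalled WT, so only HOM stood apart. Pcdh9 was called in LayerII-IV [4-P] and in Oligodendrocytes [16-P], where it had 109 CPM in HET, 86.0 CPM in HOM and 187 CPM in WT. Pcdh10 was called in Int2 [14-P], with 131 CPM in HET, 81.2 CPM in HOM and 207 CPM in WT, and Pcdh7 in SVZ1 (migrating) [2-P], with 33.3 CPM in HET, 25.6 CPM in HOM and 64.9 CPM in WT. In SVZ1, 3 of 6 measured members were below WT in HOM and the median was -0.07, so Cdh10 and Pcdh7 stood beside members at or above WT there.

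Pcdh8 in HET and Pcdh10 and Cdh8 in HOM were below WT in every type measured without passing 2-fold in each. Pcdh8 was below WT in 5 of 5 types in HET (median -0.55) and in 4 of 6 in HOM (median -0.57). Pcdh10 was below WT in 10 of 15 types in HET and 14 of 14 in HOM (medians of -0.14 in HET and -0.51 in HOM). Cdh2 was below WT in 14 of 18 types in each mutant library, with medians of -0.10 in HET and -0.37 in HOM. Cdh4 and Cdh11 had no common direction, with Cdh4 below WT in 3 of 9 types in HET and 5 of 9 in HOM and Cdh11 in 3 of 7 in HET and 5 of 6 in HOM. Pcdh15 in Oligodendrocytes [16-P] was below WT in HET (-0.50) and slightly above it in HOM (0.04).

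Clustered protocadherins were sparse as single isoforms, so their counts were summed. Reads of alpha or gamma isoforms that fall in the shared constant exons, and reads of overlapping neighbours, cannot be assigned to 1 isoform with certainty, which sums avoid in part. Of the 56 genes, 24 reached a sum of 200. Summed over all 56, LayerV-VI [18-P] (501 CPM in HET, 504 CPM in HOM, 574 CPM in WT) and Striatal inh2 [7-P] (530.0 CPM in HET, 502 CPM in HOM, 554 CPM in WT) were the 2 highest types in every library. The lowest were Ganglionic eminences [9-P] (85.6 CPM in HET, 81.2 CPM in HOM, 129.98 CPM in WT) and Microglia (104 CPM in HET, 87.3 CPM in HOM, 138 CPM in WT). The 2 highest and the 2 lowest types were thus the same in all 3 libraries.

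Against WT, the sum was lower in 18 of 18 types in HET (median log2 ratio -0.22) and in 16 of 18 in HOM (median -0.19). All types are set against the same WT library. For single genes, 48.9% of all gene and type pairs with a sum of at least 100 were below WT in HET and 50.7% in HOM. Log2 ratios ran from -0.60 to -0.02 in HET and from -0.68 to 0.15 in HOM, and in layer neurons the mean was -0.17 in HET and -0.10 in HOM. LayerV-VI [12-P] and SVZ1 were the types above WT in HOM, with log2 ratios of 0.07 and 0.15. By set, variable gamma isoforms were below WT in 14 of 16 types in both HET (median -0.33) and HOM (median -0.26). Beta isoforms were below in 8 of 12 types in HET and 9 of 13 in HOM, and variable alpha isoforms in 5 of 10 in HET and 6 of 10 in HOM. C-type isoforms, which are used by most neurons rather than chosen at random, were below WT in 10 of 12 types in HET (median -0.32) and 7 of 13 in HOM (median -0.08).

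**Figure D4:**
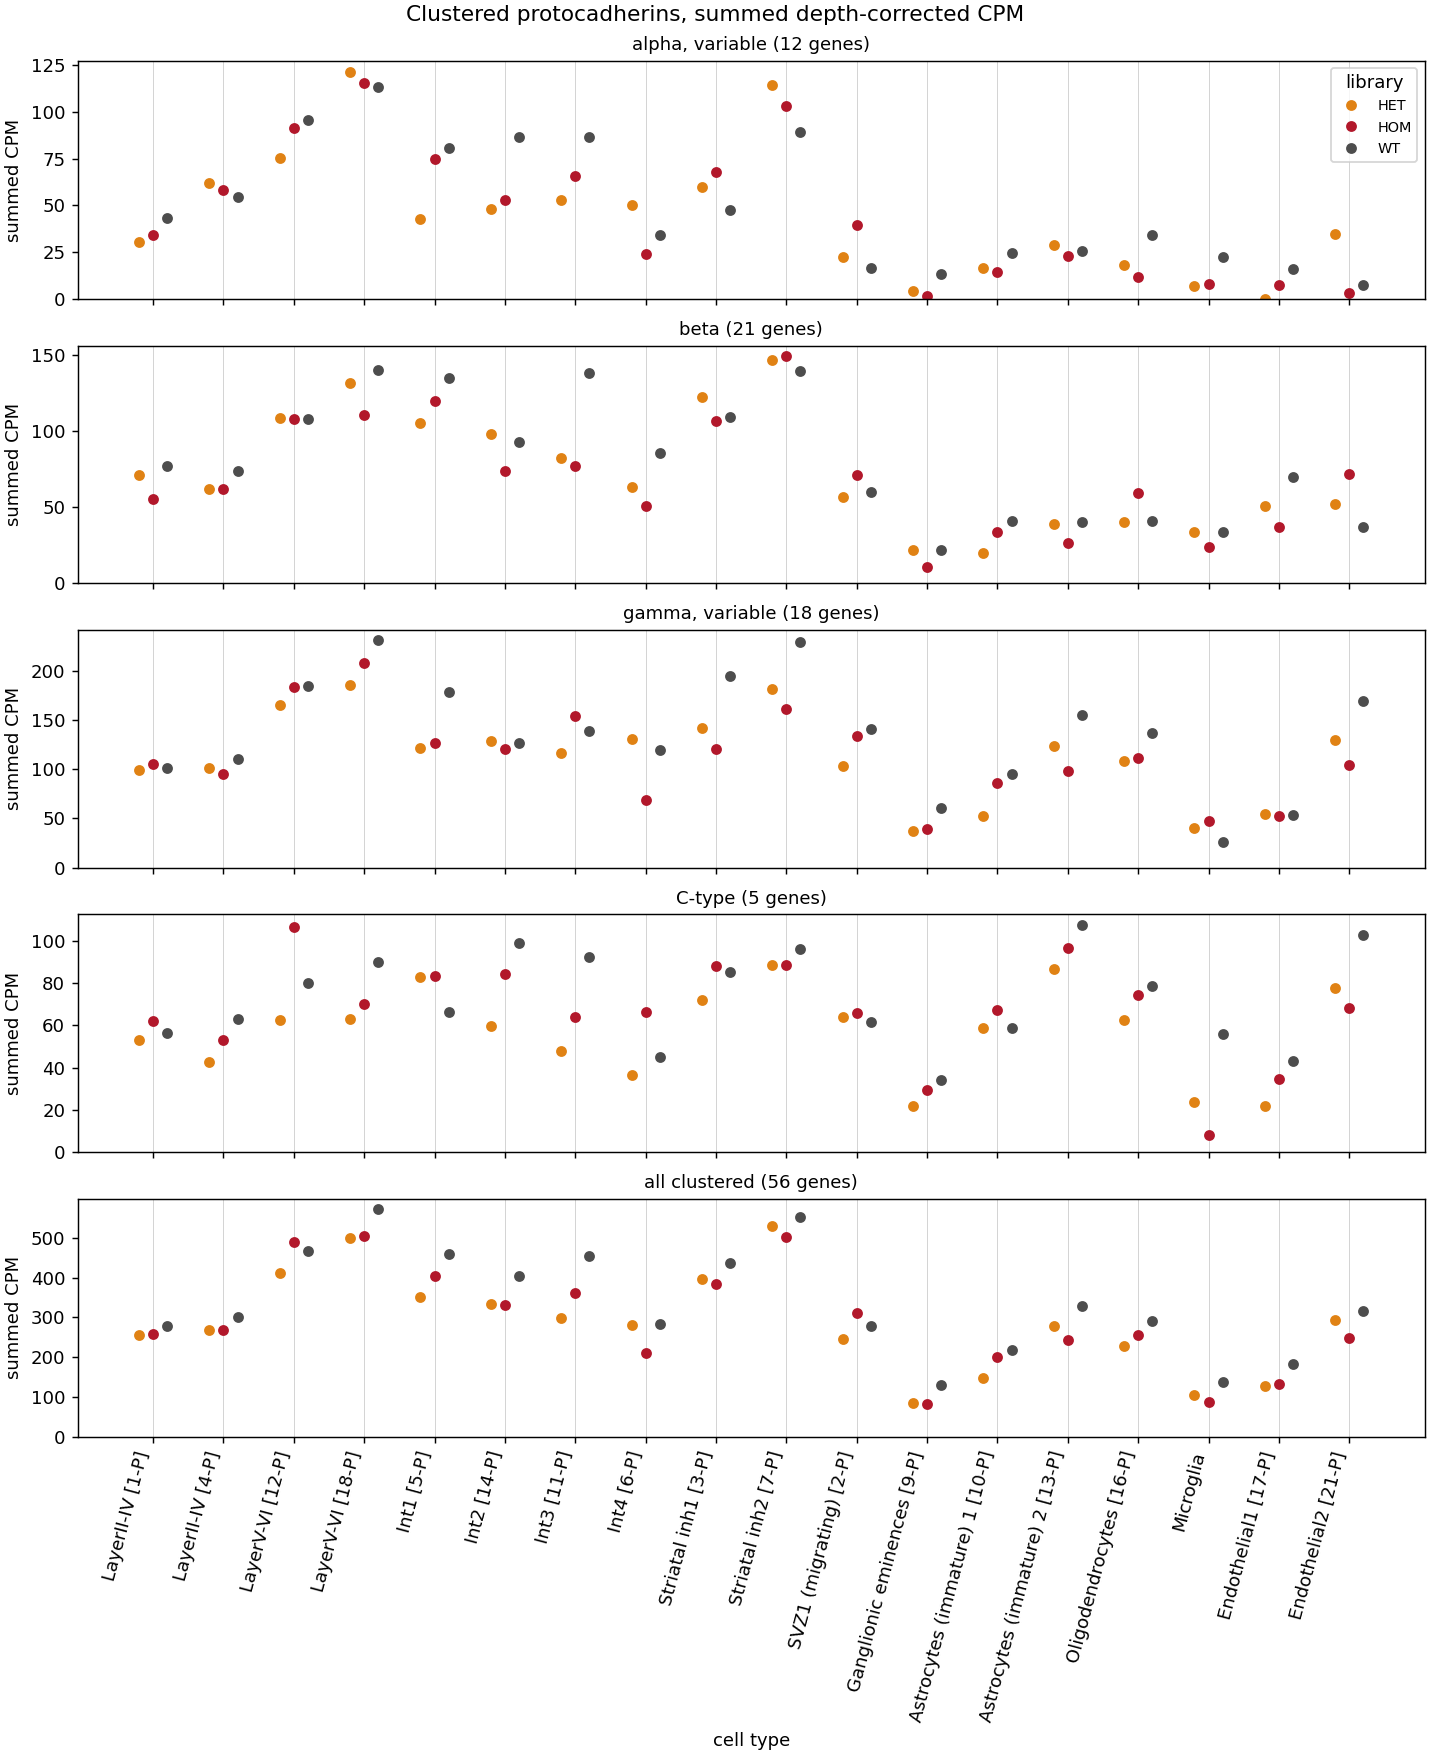
Summed depth-corrected CPM (vertical) of variable alpha, beta, variable gamma, C-type and all clustered protocadherins in 18 cell types, with 1 point for each library in the order HET, HOM, WT. The sum of all 56 genes peaks in LayerV-VI [18-P] and Striatal inh2 [7-P] and is lowest in Ganglionic eminences [9-P] and Microglia.

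The share of cells with at least 1 clustered isoform above 0 was 26.0% (24.8% to 27.2%) of 5123 HET, 28.5% (27.2% to 29.8%) of 4706 HOM and 26.9% (25.5% to 28.2%) of 4296 WT layer neurons, at median depths of 947, 1307.5 and 861 molecules per cell in HET, HOM and WT. In layer neurons with at least 2000 molecules it was 32.5% (30.2% to 35.0%) in HET, 34.6% (32.5% to 36.7%) in HOM and 33.6% (30.7% to 36.5%) in WT. These intervals cover counting error within a library only and do not compare genotypes. Striatal neurons had the largest share, at 39.8% in HET, 39.0% in HOM and 41.2% in WT, also above the other classes among cells of at least 2000 molecules (44.6% in HET, 42.4% in HOM, 44.1% in WT). Interneurons had 26.6% in HET, 27.5% in HOM and 28.9% in WT. Microglia had the lowest share of the classes, with 9.71% in HET, 7.51% in HOM and 9.72% in WT. Their median depths were 760, 818.5 and 741 molecules per cell in HET, HOM and WT. Whether this share is background was not tested. At least 2 isoforms were found in 6.71% of HET, 7.71% of HOM and 7.70% of WT layer neurons, and the largest number in a layer neuron was 5 in HET, 6 in HOM and 6 in WT.

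The leading isoforms were mostly shared between libraries. Pcdha9 was first among the 12 variable alpha isoforms in every library, with 16.3% of their sum in HET, 19.3% in HOM and 18.3% in WT. Pcdhb7 led the 21 beta genes with 17.1% in HET, 15.3% in HOM and 13.7% in WT, followed by Pcdhb17 with 11.2% in HET, 11.0% in HOM and 11.3% in WT. Among 18 variable gamma isoforms, Pcdhga11 (11.9% in HET, 12.2% in HOM, 11.9% in WT) and Pcdhgb6 (10.6% in HET, 12.2% in HOM, 12.4% in WT) held the first 2 places, with Pcdhga11 first in HET, Pcdhgb6 first in WT and the pair level in HOM. Of the 5 C-type genes, Pcdhgc3 held 57.9% of the sum in HET, 64.5% in HOM and 52.6% in WT, and Pcdhgc4, an isoform needed for neuron survival, 19.0% in HET, 16.1% in HOM and 22.0% in WT. Across isoforms, which share libraries and are not replicates, Pearson's correlation of log2(CPM + 1) with WT was 0.94 to 0.98 over these sets in HET and in HOM. The table has a row Pcdha11 and a row Pcdha11.1, and which of 2 annotated genes of that name each of them is was not resolved.

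**Figure D5:**
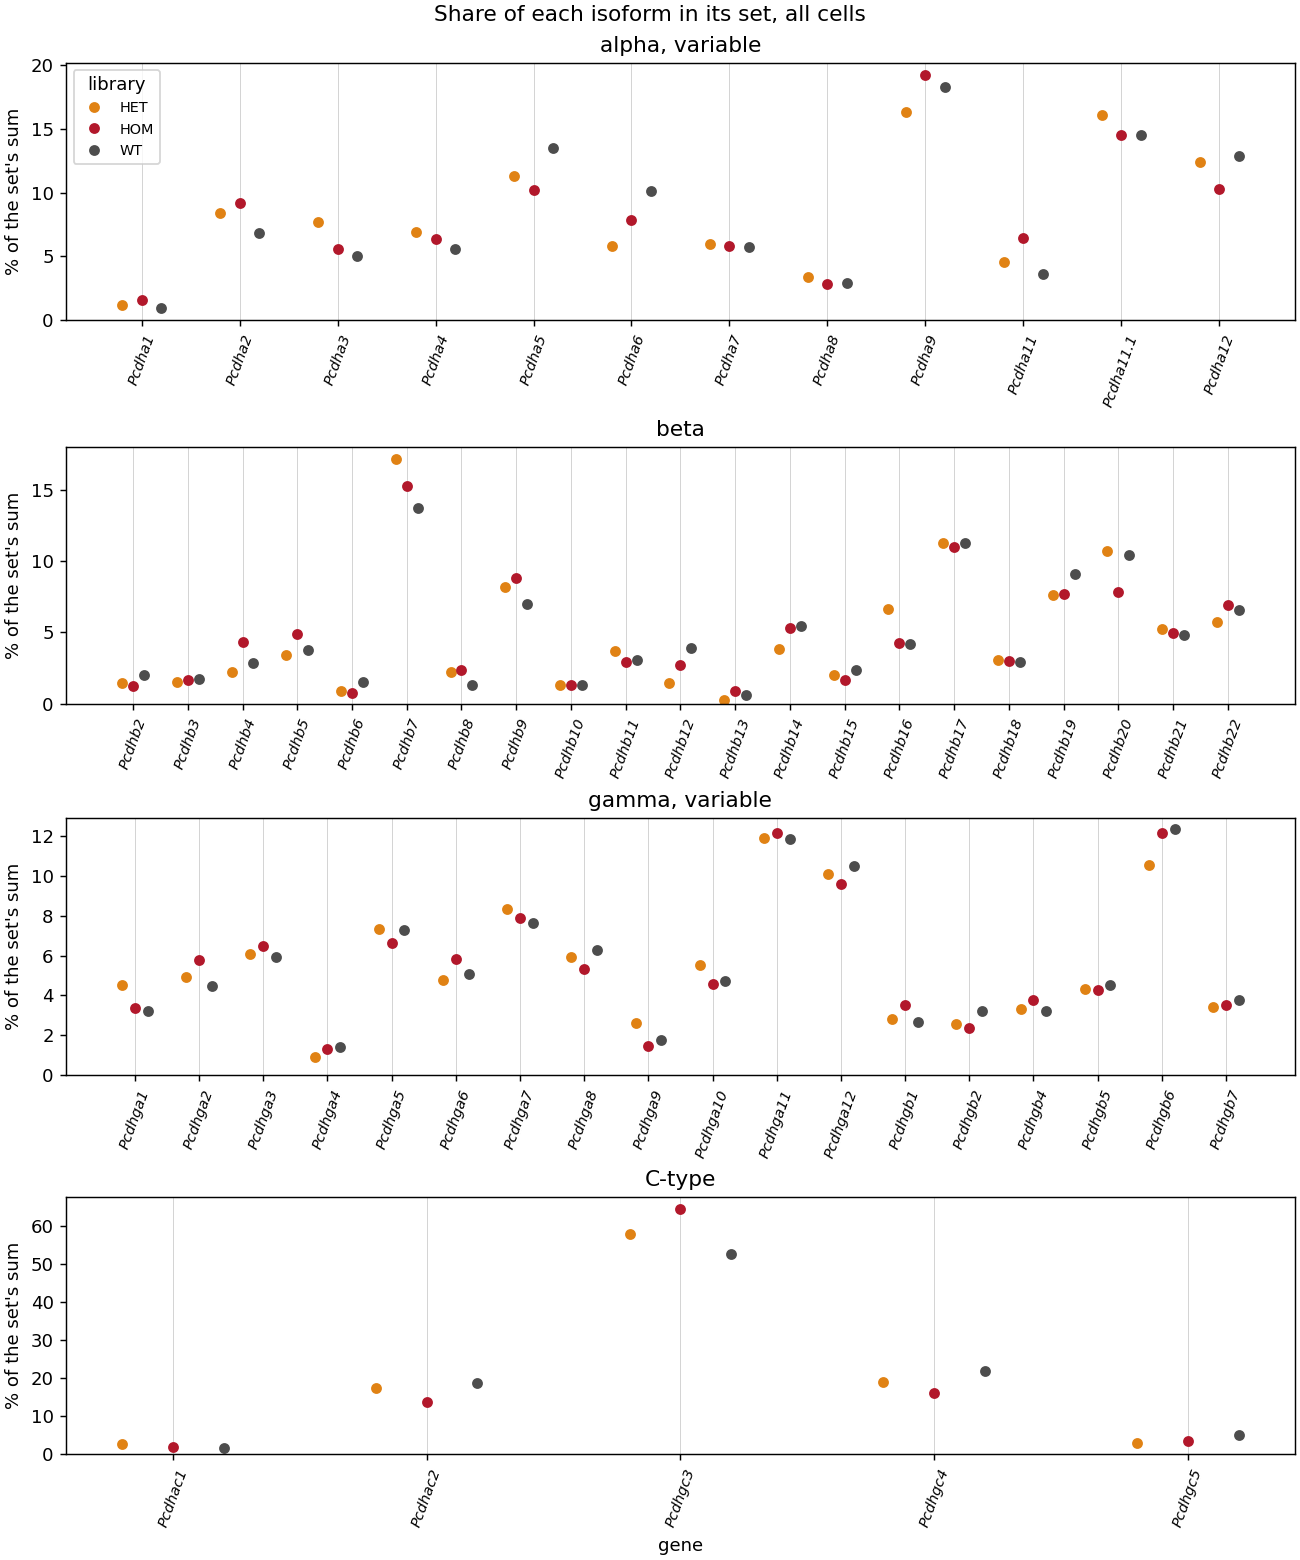
Percent of the summed depth-corrected counts of a set (vertical) held by each isoform (horizontal) over all cells, with 1 point for each library in the order HET, HOM, WT. Pcdha9, Pcdhb7 and Pcdhgc3 lead their sets in all libraries, and Pcdhga11 and Pcdhgb6 hold the first 2 places of the variable gamma set.

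Pcdh11x and Pcdh19 lie on the X chromosome, where the libraries also differ in sex. Pcdh11x over all cells was at 72.8 CPM in HET, 70.3 CPM in HOM and 70.2 CPM in WT among cells with a Y-linked transcript, and at 35.3 CPM in WT cells with Xist. The higher value of both mutant libraries in Striatal inh2 [7-P] (306 CPM in HET, 254 CPM in HOM, 155 CPM in WT) stands beside this difference between WT cells. Genotype and sex cannot be told apart there. The mix of cell types was not matched between these subsets of all cells. In WT layer neurons Pcdh11x was at 5.56 CPM (1 count) in cells with a Y-linked transcript and 9.08 CPM (10 counts) in cells with Xist. Pcdh19 was at 29.4 CPM in HET, 22.6 CPM in HOM and 23.0 CPM in WT among cells with a Y-linked transcript, and at 30.9 CPM in WT cells with Xist. Its level in LayerV-VI [18-P] was 52.6 CPM in HET, 34.5 CPM in HOM and 67.6 CPM in WT.

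Partner genes outside the symbol rule were read in layer neurons by the same call. Of 16 other cadherin superfamily genes in the table, 3 could be measured in HET and 6 in HOM, and 2 and 3 of them were called lower and 0 higher. Over all measured genes, 1.94% were called lower in HET and 5.87% in HOM. The alternative settings, among them removal of the length trend, were not run for partner genes. Celsr2, a seven-pass cadherin of planar polarity, averaged 57.8 CPM in HET, 55.5 CPM in HOM and 95.8 CPM in WT (mean log2 ratios -0.72 and -0.80 in HET and HOM). Dchs1, the ligand of Fat4, averaged 40.1 CPM in HET, 34.6 CPM in HOM and 71.4 CPM in WT (-0.79 and -0.996 in HET and HOM), and the calsyntenin Clstn1 126 CPM in HET, 110.5 CPM in HOM and 186 CPM in WT (-0.57 and -0.74 in HET and HOM), the last called only in HOM. Of 7 catenins, 3 were measured and 1 was called, Ctnnd2, with 111 CPM in HET, 97.1 CPM in HOM and 148 CPM in WT and log2 ratios of -0.41 in HET and -0.59 in HOM, called in HOM. The WAVE complex list had 6 of 9 genes measured in HET and 7 in HOM, and Cyfip1 was called lower in HOM, with 45.9 CPM in HET, 37.4 CPM in HOM and 60.8 CPM in WT and log2 ratios of -0.39 in HET and -0.74 in HOM. Among 11 chromatin factors of clustered promoter choice, 8 were measured in each comparison, with medians of -0.26 in HET and -0.41 in HOM, and Ctcf was called lower in HOM at 68.2 CPM in HET, 55.8 CPM in HOM and 88.5 CPM in WT. Of the adhesion partner list 2 of 7 genes were measured in each comparison, and of the kinases bound by clustered protocadherins 1 of 2. None of these measured genes was called in either comparison.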

How the data were processed

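Per the submitters' processing notes and the methods, the authors used Cell Ranger 4.0.0 (mm10) and Seurat 4.0, and named cell types by mapping onto reference data. Cells had been fixed in methanol, and cells with few or many genes or high mitochondrial content were discarded. No doublet caller was run here, and whether the authors removed doublets was not stated.

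The deposited expression table held whole numbers, entered as a score because the total of a cell (825 to 1952) equalled its number of molecules (499 to 17602) in only 617 of 36263 cells. They had been corrected for depth, so no count model was used. From the deposited annotation of cells came molecules (counts), mitochondrial content (percent) and probability of the assigned type (fraction). The authors' own comparison tables hold log2 fold changes, p-values and fractions of cells per gene, and none were used.

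Sums per library and type were scaled to CPM (Python 3.11.15, pandas 2.3.3, NumPy 2.4.6, SciPy 1.17.1, Matplotlib 3.10.9). With 1 library per genotype, no p-value was computed, and SD is over the 4 layer types. Scripts were tested on simulated data with known fold changes. Members, lists and rules were chosen with earlier results of these data known. Named were the members measured in the 4 layer types, the leading members of other types, those past 2-fold, members with a sum of 200 by highest type, and up to 4 genes per partner list. The alternatives were other scalings (TMM, median of ratios, technical genes left out, per-cell means), other minimum sums and folds, subsets of cells (at least 2000 molecules, a Y-linked transcript, probability of at least 0.9, no interneuron or meningeal fibroblast marker) and removal of a trend with transcript length in 20 bins (GENCODE annotation, 87 of 88 members matched).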

Additional observations from a re-analysis of the deposited data

How the results depend on the processing

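No paired analysis was possible because each genotype is 1 library and the shared numbers in the labels are sequencing runs of it. The alternatives for single types, for the clustered sums, for SVZ1 and for cells without markers of another type were chosen after seeing the data. The count of members higher in layer neurons stayed at 0 in both comparisons under every alternative that gave a value. The count lower in HET (1 as reported) was 2 with technical genes left out of the total, with a minimum sum of 20, with cell type probability of at least 0.9 and without layer neurons that had an interneuron marker, 4 at a lower fold threshold, and 0 at 2-fold, with a minimum sum of 200 and after removal of the length trend. The count lower in HOM (2) was 4 with a minimum sum of 20, 1 at 2-fold, 1 in Y-positive cells (3 members measured), and 0 with a minimum sum of 200. The cause of these moves was not tested, except that a higher minimum leaves 1 member and the Y-linked subset 3. The HET median (-0.33) was -0.16 with a minimum sum of 200 and -0.17 without the length trend. The HOM median (-0.35) was -0.23 with TMM, -0.25 with median-of-ratios scaling, -0.40 without technical genes, -0.16 in cells of at least 2000 molecules, -0.55 in Y-positive cells, -0.23 and -0.10 with minimum sums of 20 and 200, and -0.13 without the length trend. Pcdh17 remained below WT in all 10 alternatives that gave a value, from -0.81 to -0.44 in HET and -1.97 to -1.06 in HOM. Cdh10 in HOM ran from -1.10 to -0.77 in layer neurons and -2.30 to -1.93 in SVZ1. The layer neuron ranges of both genes leave out Y-positive cells and the minimum sum of 200, which gave no value. Pooled over Y-positive layer neurons, Cdh10 was at 37.9 CPM in HOM and 44.5 CPM in WT. Pcdh17 was at 12.6 CPM in HOM and 83.4 CPM in WT there. Clustered sums in layer neurons ranged from -0.26 to -0.09 in HET and -0.43 to 0.01 in HOM, so the HOM direction turned. Removal of the length trend was not run for these sums.

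Pairs 2-fold higher in HET (0) were 1 with probability of at least 0.9, with at least 2000 molecules, with per-cell means and without the length trend, and 11 in Y-positive cells. Pairs higher in HOM (0) were 7 in Y-positive cells, 1 with at least 2000 molecules and 3 of 159 with a minimum sum of 50. Pairs lower in HET (1) were 0 with TMM, with a minimum sum of 200 and without the length trend, 5 with probability of at least 0.9, 3 without layer neurons that had an interneuron marker, 9 in Y-positive cells, 2 with at least 2000 molecules and 4 with a minimum sum of 50. Pairs lower in HOM (12) were 3 of 42 and 27 of 159 with minimum sums of 200 and 50, and 7 without the length trend. Shares over all genes were not computed under the alternatives. The share of layer neurons with a clustered isoform was 27.5% in HET and 29.8% in HOM with probability of at least 0.9, and 32.5% in HET, 34.6% in HOM and 33.6% in WT with at least 2000 molecules. The number of members with a constant highest type stayed within 1.5 times the reported 14. At this depth 32 of 56 clustered genes stayed under a sum of 200, and a sex difference, 2 pooled animals per library and free RNA could not be separated from genotype.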

Other observations

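The members with a sum under 200 numbered 42. Their levels over whole libraries also depend on the mix of cell types. As single genes, only Cdh1 and Pcdh12 are placed in cell types here, from few counts. Cdh1, or E-cadherin of epithelia, had 15 depth-corrected counts in HOM, in 8 cells of 7 types with 5 of the counts in Endothelial2 [21-P], and none in HET or WT. Meningeal fibroblast markers were high in that type of the same library (466 CPM in HET, 19420 CPM in HOM, 382 CPM in WT), and their part in the Cdh1 counts was not tested. Pcdh12, a protocadherin of vascular endothelium, was highest in Endothelial1 [17-P] at 57.7 CPM in HET, 29.8 CPM in HOM and 59.2 CPM in WT, from sums of 16, 12 and 11 counts in HET, HOM and WT. Cdh7, a type II cadherin, had 4.59 CPM in HET, 1.72 CPM in HOM and 6.31 CPM in WT over all cells, and sums of 65, 28 and 77 in HET, HOM and WT. Pcdh20 had 4.38 CPM in HET, 2.45 CPM in HOM and 4.84 CPM in WT.

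LayerI [19-P] was left out of the comparisons with 114 HET, 237 HOM and 71 WT cells. Its highest member was Pcdh11x in all 3 libraries, at 299 CPM in HET, 293 CPM in HOM and 306 CPM in WT. The part of sex in these values was not tested. Cdh4 came to 213 CPM in HET, 131 CPM in HOM and 242 CPM in WT in this type, from 27, 34 and 19 counts in HET, HOM and WT.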
